A study of Mus musculus with 41 samples.

Results

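The level of 9 imprinted genes known for expression from the maternal chromosome was read in mouse androgenetic haploid embryonic stem cells (AG-haESCs), which carry a paternal genome only. The genes, named by symbol in the deposited tables, were Igf2r, Cdkn1c, Phlda2, Grb10, Slc22a18, Tssc4, Ube3a, Commd1 and Cd81, 9 of the 24028 symbols measured, and each stood on a single row. AG-haESCs are made by injecting a sperm head into an enucleated oocyte, and haploid cells were sorted by DNA content and kept on mouse embryonic fibroblast feeders. 13 RNA-seq libraries, all labelled C57BL/6, were analysed. The wild-type line 2i-14 was sampled at passages 18, 39 and 50 in 2i/L, a serum medium with LIF, the Mek inhibitor PD0325901 and the Gsk3 inhibitor CHIR99021. Wild-type TSa2i/L cells, which were derived in serum with LIF, the Src inhibitor CGP77675 and CHIR99021 and then kept in the serum-free form of that medium (SF/a2i/L), gave 5 libraries: TSa2i-14 at passages 22, 47 and 54 and TSa2i-C57 at passages 9 and 58. The paper lists TSa2i-14 as C57BL/6 with actin-EGFP and TSa2i-C57 as C57BL/6. Line 2i-O48 carries deletions of the H19-DMR and the IG-DMR (differentially methylated regions that control imprinted genes), and 2i-O48-TKO carries these and a deletion of the gene H19. Both were sampled in 2i/L, without a stated passage. Each of these lines, 2i-14 included, was also sampled after 5 passages in SF/a2i/L, and the 3 resulting cultures are called switched. Inhibitor, serum and basal medium changed together between the media, so their parts cannot be told apart. In the wild-type 2i/L group the line and the medium cannot be told apart either, since that group is 3 passages of 1 line, and the p-values below measure the spread between libraries that share lines.

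Imprinted genes are expressed from 1 parental chromosome according to DNA methylation set in the egg or the sperm. A maternally expressed gene is usually silent on the paternal chromosome, often under a long non-coding RNA that is itself made from the paternal copy, such as Airn at Igf2r and Kcnq1ot1 in the distal chromosome 7 cluster of Phlda2, Slc22a18, Cdkn1c, Tssc4 and Cd81. For some of these genes imprinting is limited to certain tissues: Ube3a is maternally expressed in neurons and from both copies elsewhere, Commd1 imprinting is known from the brain, and that of Tssc4 and Cd81 mainly from the placenta. This list is not complete, so expression of a gene in these cells does not by itself show that silencing was lost. The question put to the data was which of the 9 are silent in cells that hold no maternal genome.

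The positions of the genes on NCBIM37, the genome build that mm9 names, frame the results. 5 of the 9 lie in 1 cluster on chromosome 7 in the order Cd81 (chr7:150238644-150253839), Tssc4 (chr7:150255154-150256998), Cdkn1c (chr7:150644255-150646955), Slc22a18 (chr7:150659626-150685239) and Phlda2 (chr7:150687450-150688446). The 3' ends of Slc22a18 and Phlda2 face each other across 2210 bases, and Cdkn1c lies 12670 bases from Slc22a18. Ube3a (chr7:66484122-66562097) is elsewhere on chromosome 7, Grb10 (chr11:11830511-11938686) and Commd1 (chr11:22734744-22882382) are on chromosome 11, and Igf2r (chr17:12875272-12962530) is on chromosome 17. Igf2r shares 28354 bases with Airn on the opposite strand, and the whole of Zrsr1 (3284 bases) lies within Commd1 on the opposite strand. Whether the counting used strand is not given in the sources used here, so reads of these overlapping pairs cannot be told apart.

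Start sites from a RefSeq table (GRCm38.p6) were matched for 8 of the 9 genes, all but Cdkn1c, and each 250-base stretch upstream of a start was found once in NCBIM37. The stretches of Phlda2, Slc22a18 and Grb10 are shown because these 3 genes were called different in the medium or the switch comparison below as first fitted. Each runs 5' to 3' on the strand of its gene with CpG, the dinucleotide that carries DNA methylation, in capitals.
Phlda2, chr7:150688430-150688679, minus strand: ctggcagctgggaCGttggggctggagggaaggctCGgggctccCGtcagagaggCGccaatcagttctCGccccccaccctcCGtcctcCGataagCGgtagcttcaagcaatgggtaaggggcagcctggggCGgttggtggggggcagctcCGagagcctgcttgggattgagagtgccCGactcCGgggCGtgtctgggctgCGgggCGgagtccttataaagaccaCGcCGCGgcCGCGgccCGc
Slc22a18, chr7:150659444-150659693, plus strand: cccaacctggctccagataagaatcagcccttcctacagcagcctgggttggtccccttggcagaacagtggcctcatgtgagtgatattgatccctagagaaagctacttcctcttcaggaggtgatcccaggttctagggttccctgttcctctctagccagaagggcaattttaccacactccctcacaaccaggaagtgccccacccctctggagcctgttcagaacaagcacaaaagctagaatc
Grb10, upstream start, chr11:11937424-11937673, minus strand: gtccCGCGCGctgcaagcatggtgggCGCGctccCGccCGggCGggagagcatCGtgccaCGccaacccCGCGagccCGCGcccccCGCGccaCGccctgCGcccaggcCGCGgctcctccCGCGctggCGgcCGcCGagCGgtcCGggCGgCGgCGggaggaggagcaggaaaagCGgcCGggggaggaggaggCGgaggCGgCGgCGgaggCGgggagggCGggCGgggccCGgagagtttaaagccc
Grb10, downstream start, chr11:11927975-11928224, minus strand: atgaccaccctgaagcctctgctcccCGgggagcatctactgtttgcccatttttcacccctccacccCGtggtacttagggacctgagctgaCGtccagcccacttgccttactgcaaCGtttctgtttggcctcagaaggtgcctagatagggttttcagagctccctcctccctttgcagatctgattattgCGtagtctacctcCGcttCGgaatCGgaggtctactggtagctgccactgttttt

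The Phlda2 stretch holds 21 CpG, and 16.4% of the 32841 stretches of this length in the table hold as many or more. That of its neighbour Slc22a18 holds 0, as do 7.86% of all stretches. The upstream Grb10 stretch holds 40 CpG, a number reached by 1.31% of stretches, against 8 at the downstream start, and a level per gene does not show which start was used. Ube3a, Igf2r, Tssc4 and Cd81 hold 24, 27, 17 and 16 CpG, the starts of Commd1 hold 13 and 14, and the median over all stretches was 6. The DNA methylation of these stretches was not analysed here.

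Levels are given as FPKM, the number of fragments scaled to transcript length and library size, and depth was estimated from the steps between low values. The libraries held an estimated 12700000 to 20000000 fragments, and 3 fragments on a 1-kb transcript correspond to 0.15 to 0.237 FPKM, a floor that covers counting error only. All 10 pluripotency genes listed were at 1 FPKM or more in all libraries, and the trophoblast markers Cdx2, Elf5, Hand1 and Gcm1 were under 1 FPKM in all of them. TSa2i-14 p54 had 11 of 15 fibroblast genes at 1 FPKM or more, 2i-14 p39 had 10, TSa2i-C57 p58 had 6 and each of the other libraries had 0 to 3. The FPKM values of switched 2i-14 summed to 2146932 against 651115 to 871848 in the other 12 libraries, and Mir684-1, at 1101572 there, was listed at 0 in all others. H19, the gene deleted in 2i-O48-TKO, was listed at 0 in that line and in 2i-O48 in 2i/L and was at 0.057, 0.0248 and 0 FPKM in 2i-14 at p18, p39 and p50. After the switch it was at 0.0686 FPKM in 2i-O48-TKO (an estimated 2.66 fragments), 0.125 in 2i-O48 and 0.0982 in 2i-14, so its deletion cannot be checked from these levels.

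None of the 9 genes was silent throughout. Phlda2, Tssc4, Ube3a, Commd1 and Cd81 were at 1 FPKM or more in all 13 libraries, and Igf2r, Grb10, Slc22a18 and Cdkn1c were so in 12, 9, 9 and 7 libraries. The only value under 3 fragments was Slc22a18 in 2i-O48, listed at 0. The feeder fibroblasts are not AG-haESCs, so RNA from them is not limited to a paternal genome. Its part in these levels was not tested. The share at 1 FPKM or more in all libraries was 55.6% of the 9 genes, 40% of 30 paternally expressed imprinted genes, 26.5% of 34 other maternally expressed imprinted genes and 33.6% of all symbols. These shares are descriptions with no test.

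**Figure D1:**
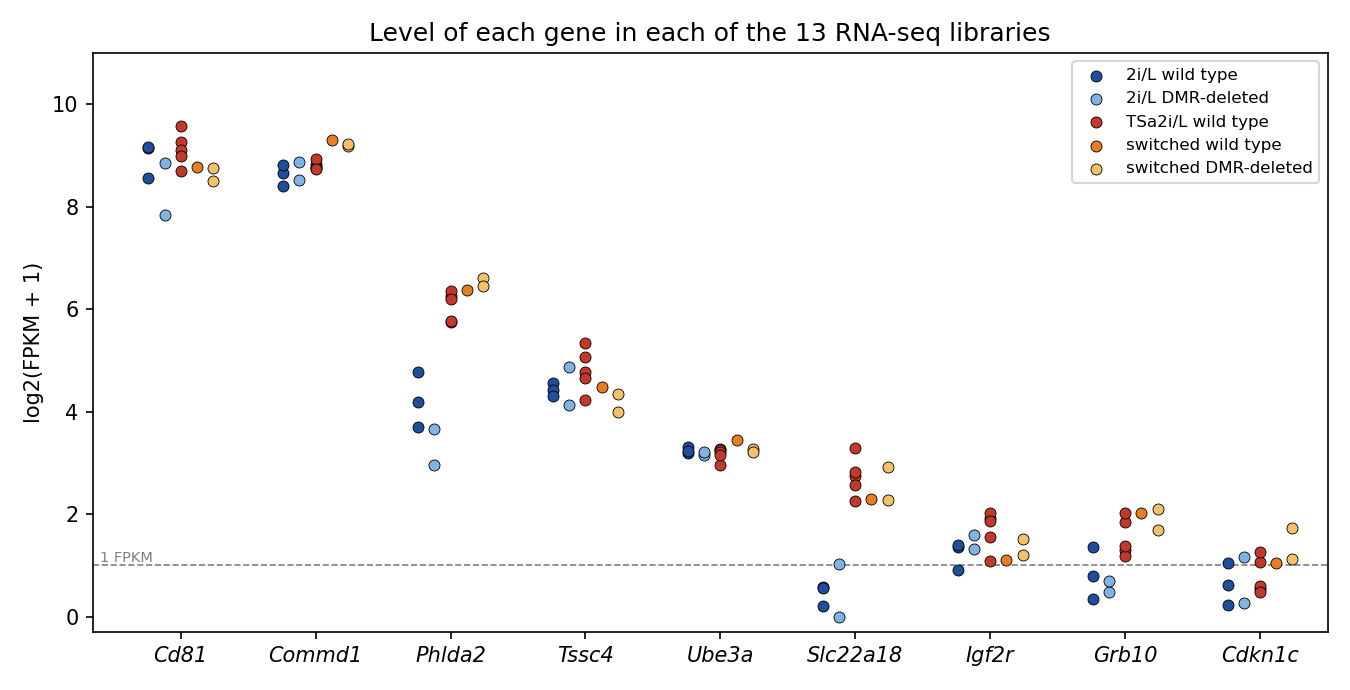
Level of the 9 genes in each of the 13 RNA-seq libraries as log2(FPKM + 1), ordered by median, with 1 point per library coloured by group and a dashed line at 1 FPKM. Cd81 and Commd1 lie far above the other genes, Ube3a spans a narrow band, and Phlda2 and Slc22a18 separate the 8 libraries in TSa2i/L or SF/a2i/L from the 5 in 2i/L.

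Cd81, a tetraspanin of the cell surface, and Commd1, a protein of copper handling and NF-kB control, had the highest levels. Cd81 ran from 227 FPKM in 2i-O48 to 763 in TSa2i-C57 p9 with a median of 461, and Commd1 from 339 in 2i-14 p18 to 631 in switched 2i-14 with a median of 447. Their ranges overlapped, so the order of these genes is not fixed, and both stood at or above the 97.5th percentile of all symbols in all libraries. Tssc4, a factor in assembly of the splicing machinery, ran from 15.0 to 39.5 FPKM with a median of 21.3. It lies 1314 bases from Cd81, and over the 13 libraries their log2 levels had a Pearson correlation of -0.119, given as a description, since libraries share lines and media.

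Ube3a, a ubiquitin ligase, was the steadiest of the 9. It ran from 6.77 FPKM in TSa2i-C57 p9 to 9.86 in switched 2i-14 with a median of 8.31, a ratio of 1.46 between the extremes. The same ratio was 1.86 for Commd1, 2.63 for Tssc4, 3.36 for Cd81, 3.43 for Igf2r, 12 for Grb10, 13.3 for Cdkn1c and 14.2 for Phlda2, and none is given for Slc22a18 because its lowest value is 0.

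Igf2r, the receptor that takes up IGF2 for breakdown in lysosomes, was at 0.886, 1.56 and 1.64 FPKM in 2i-14 at p18, p39 and p50. In TSa2i/L it was at 1.13, 2.78 and 3.04 in TSa2i-14 (p22, p47, p54) and at 1.92 and 2.62 in TSa2i-C57 at p9 and p58. It was at 2.01 and 1.50 in 2i-O48 and 2i-O48-TKO, and at 1.15 in switched 2i-14, 1.31 in switched 2i-O48 and 1.84 in switched 2i-O48-TKO. The groups overlapped, and the highest value was in TSa2i-14 p54, the library with the most fibroblast RNA. By estimate these values rest on 107 to 431 fragments over the longest annotated transcript of 8887 bases. Airn, its antisense partner, was at 1 FPKM or more in 4 libraries (3.51 in TSa2i-14 p54, 1.72 in TSa2i-14 p47, 1.60 in 2i-O48 and 1.37 in switched 2i-O48-TKO) and was listed at 0 in TSa2i-C57 p9 and switched 2i-O48. Its lowest values above 0 rest on an estimated 3.89 to 5.42 fragments in 2i-14 p50, 2i-14 p18 and TSa2i-14 p22, and reads from the shared stretch may be counted to either gene.

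Cdkn1c, the cyclin-dependent kinase inhibitor p57Kip2, had the lowest median level of the 9, 1.07 FPKM. In 2i-14 it was at 1.07, 0.536 and 0.174 FPKM at p18, p39 and p50, and in TSa2i/L at 0.456, 0.512 and 1.10 in TSa2i-14 and at 0.389 and 1.38 in TSa2i-C57, in order of passage. 2i-O48 and 2i-O48-TKO were at 0.196 and 1.24 before the switch and 2.31 and 1.18 after it, and switched 2i-14 was at 1.08. The groups overlapped, and all 13 values lay above their floor of 3 fragments. Kcnq1ot1, the non-coding RNA of the cluster, was between 0.16 and 0.541 FPKM in all 13 libraries, and Kcnq1, the gene it runs through, was at most 0.102. Among the other CDK inhibitors, Cdkn1a ran from 89.3 to 227 FPKM and Cdkn2d from 19.4 to 40.0, and of the 7 listed (Cdkn1c included) 0 of the 6 tested were called between media (7.57% of all genes were) and 0 of 5 at the switch (6.89% of all genes), counts too small to set apart from those shares. Their median log2 difference was -0.05 between media and -0.28 at the switch.

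To find what differed between media, the 5 wild-type TSa2i/L libraries were compared with the 3 of 2i-14 in 2i/L by limma on log2(FPKM + 1), with Benjamini-Hochberg adjustment over the 10387 genes tested and a call at an adjusted p under 0.05. 2 neighbouring genes of the 9, Phlda2 and Slc22a18, were higher in TSa2i/L, and none was lower. A gene was tested if it reached 1 FPKM in 3 libraries, and Slc22a18 did so only through the TSa2i/L group where it was high. With no filter both genes were still called higher. Over all tested genes 5.72% were called higher and 7.57% were called in either direction. That split of 594 higher and 192 lower became 359 and 280 with median centring, under which the same 2 of the 9 genes were called higher. The median log2 difference was 0.38 over the 9 genes, all of which were tested, and 0.07 over all genes. Slc22a18 and Grb10 count in the first median though they were tested only through the TSa2i/L group, so it shows no shift of the set. In bulk libraries such as these, fewer cells with a transcript and less of it per cell cannot be told apart.

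Phlda2, a PH-domain protein known for restraining placental growth, was at 26.3, 17.2 and 12.0 FPKM in 2i-14 at p18, p39 and p50. In TSa2i/L it was at 52.8, 75.3 and 53.6 in TSa2i-14 (p22, p47, p54), and at 81.1 and 72.2 in TSa2i-C57 at p9 and p58. All 5 TSa2i/L libraries lay above all 3 in 2i/L, as 11.8% of tested genes did. The means were 67.0 ± 13 (SD, n = 5) and 18.5 ± 7.24 (SD, n = 3), and the log2 difference was 1.85 ± 0.24 (SE; limma adjusted p = 0.00173), or 3.60-fold on the FPKM + 1 scale.

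Slc22a18, a membrane transporter of the organic cation family, was at 0.495, 0.475 and 0.154 FPKM in 2i-14 at p18, p39 and p50, by estimate 10.5, 11.5 and 4.57 fragments. In TSa2i/L it was at 3.80, 5.73 and 4.96 in TSa2i-14 (p22, p47, p54), and at 6.03 and 8.74 in TSa2i-C57 at p9 and p58, or 85.6 to 204 fragments. The groups did not overlap, as for 11.8% of tested genes, among which Slc22a18 stood only through the TSa2i/L group. The log2 difference was 2.29 ± 0.23 (SE; limma adjusted p = 3.98e-04), and on FPKM itself the means, 5.85 ± 1.83 (SD, n = 5) and 0.375 ± 0.191 (SD, n = 3), differed 15.6-fold. No library of 2i-14 in 2i/L reached 1 FPKM, and with a filter on a mean FPKM of at least 5 it was not tested.

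Fibroblast RNA differed between libraries of both media, being highest in TSa2i-C57 p58, 2i-14 p39 and TSa2i-14 p54. Without these 3 libraries the log2 difference was 1.89 for Phlda2 (limma adjusted p = 0.0262) and 2.21 for Slc22a18 (limma adjusted p = 0.00657). With the mean of the fibroblast genes as a covariate it was 1.87 and 2.28 (limma adjusted p = 0.0018 and 5.35e-04). In both refits Slc22a18 passed the filter only through the TSa2i/L libraries where it was high. Neither refit was run without the filter.

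The other 7 genes were not called between media. Grb10, an adaptor that dampens insulin and IGF1 receptor signalling, was at 0.739, 1.57 and 0.272 FPKM in 2i-14 at p18, p39 and p50. In TSa2i/L it was at 1.46, 2.59 and 3.05 in TSa2i-14 (p22, p47, p54) and at 1.27 and 1.61 in TSa2i-C57 at p9 and p58. The groups overlapped through 2i-14 p39, and the log2 difference of 0.71 ± 0.27 (SE) did not pass (limma adjusted p = 0.134). With the 2 DMR-deleted lines joined to the 2i/L group it did, at 0.81 (limma adjusted p = 0.0319, from 0.0319 to 0.396 over the alternatives). In both fits Grb10 passed the filter only through the TSa2i/L group where it was high. With no filter the first fit gave an adjusted p of 0.2575 (limma), and the joined fit was not run without the filter. The log2 difference was 0.46 for Igf2r, 0.38 for Tssc4, 0.18 for Commd1, 0.17 for Cd81, 0.15 for Cdkn1c and -0.08 for Ube3a, with adjusted p from 0.272 to 0.834. The 95% interval for Ube3a ran from -0.43 to 0.28.

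**Figure D2:**
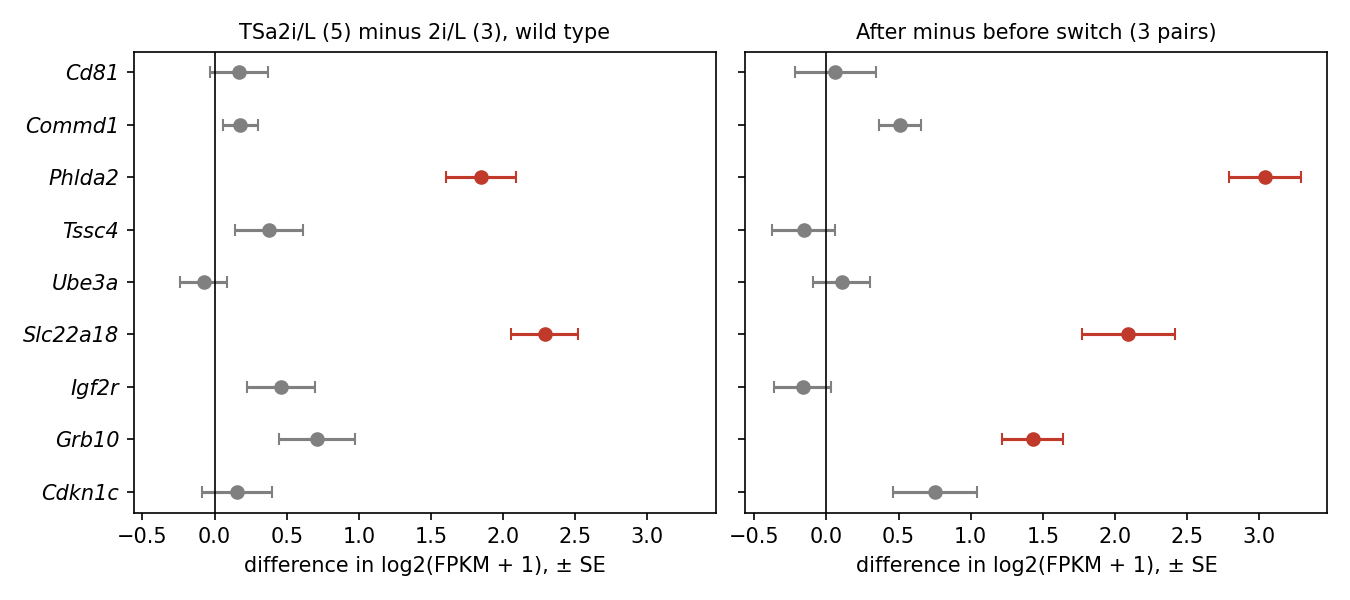
Difference in log2(FPKM + 1) with its standard error for each of the 9 genes, between wild-type TSa2i/L and 2i/L libraries on the left and after minus before the switch on the right, with genes called by limma in red. Phlda2 and Slc22a18 lie to the right in both panels and Grb10 is called in the right panel.

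To follow the same lines across media, the 3 switched cultures were set against their own lines in 2i/L (2i-14 at p50, 2i-O48 and 2i-O48-TKO), and the fit held a term for each line. The passage at which the switched cultures left 2i/L is not given in the sources used here, so p50 is a choice of control for 2i-14. 3 of the 9 genes, Phlda2, Grb10 and Slc22a18, were called higher after the switch and none lower. Grb10 and Slc22a18, and Cdkn1c among the genes not called, passed the filter only through the switched libraries where they were high. Phlda2 did not need those to pass. With no filter on low values 0 of the 9 were called. Over the 9759 genes tested, 2.22% were called higher and 6.89% in either direction. The split of 217 higher and 455 lower became 386 and 314 with median centring, which left the calls of Phlda2, Grb10 and Slc22a18 in place. The median log2 difference was 0.51 over the 9 genes and -0.09 over all. Grb10, Slc22a18 and Cdkn1c count in the first median though they were tested only through the switched libraries, so it shows no shift of the set. 2i-14 p50 serves as control in both comparisons, so they are not independent of each other. Without line 2i-14, which leaves no library in common, the log2 rise was 3.22 for Phlda2, 2.09 for Slc22a18 and 1.31 for Grb10 (limma adjusted p = 7.74e-06, 0.00139 and 0.00705), for 2 pairs that both carry DMR deletions and share the line name 2i-O48. Grb10 and Slc22a18 passed the filter through the switched libraries here too. With 2 pairs and a term for each line little is left to measure spread, so these p-values lean on limma's pooling of variance over genes. With all 3 lines and no filter 0 of all genes were called by limma (3206 at an unadjusted p under 0.05), and the adjusted p of the 3 genes was 0.143 for Phlda2, 0.148 for Grb10 and 0.158 for Slc22a18.

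Phlda2 went from 12.0 to 82.2 FPKM in 2i-14, from 6.77 to 96.4 in 2i-O48 and from 11.7 to 86.9 in 2i-O48-TKO. Each switched culture was above each unswitched one, as 11.5% of tested genes were, and above each TSa2i/L library. In 2i-14 the fold was 6.86 against p50, 4.78 against p39 and 3.13 against p18, with 14.2 for line 2i-O48 and 7.44 for 2i-O48-TKO. The log2 rise was 3.04 ± 0.25 (SE; limma adjusted p = 0.00474), rank 9 of all tested genes.

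Slc22a18 went from 0.154 to 3.92 FPKM in 2i-14, from a listed 0 to 6.60 in 2i-O48 and from 1.03 to 3.85 in 2i-O48-TKO. Groups did not overlap, as for 11.5% of tested genes, and the log2 rise was 2.09 ± 0.32 (SE; limma adjusted p = 0.0203), rank 34. It reached 1 FPKM in a single library before the switch, so the filter was passed through the switched group, and with no filter the adjusted p was 0.158 (limma). In 2i-14 the fold was 25.5 against p50, a value of 4.57 fragments, 8.26 against p39 and 7.93 against p18, and with p39 or p18 as control the log2 rise was 1.98 and 1.97 (limma adjusted p = 0.00456 and 0.0159). Slc22a18 again passed the filter only through the switched group in the refits with p39 or p18, which were not run without the filter.

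Grb10 went from 0.272 to 3.07 FPKM in 2i-14, from 0.385 to 3.27 in 2i-O48 and from 0.62 to 2.21 in 2i-O48-TKO. Groups did not overlap, as for 11.5% of tested genes, and the log2 rise was 1.43 ± 0.21 (SE; limma adjusted p = 0.0187), rank 102. No library reached 1 FPKM before the switch, so the filter was passed through the switched group, and with no filter the adjusted p was 0.148 (limma). In 2i-14 the fold was 11.3 against p50, 1.96 against p39 and 4.15 against p18, and with p39 or p18 as control the log2 rise was 1.09 and 1.28 (limma adjusted p = 0.0166 and 0.0146). Grb10 again passed the filter only through the switched group in the refits with p39 or p18, which were not run without the filter. The fibroblast genes had mean log2(FPKM + 1) values of 0.159 to 0.188 in the 3 libraries before the switch and 0.244 to 0.276 after it, and at most 1 of the 15 reached 1 FPKM in any of these 6 libraries. Of the 10 pluripotency genes, 1 was called at the switch, beside 6.89% of all tested genes. This was Nanog, with a log2 difference of -0.93 (limma adjusted p = 0.0483), and with no filter it was not called.

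**Figure D3:**
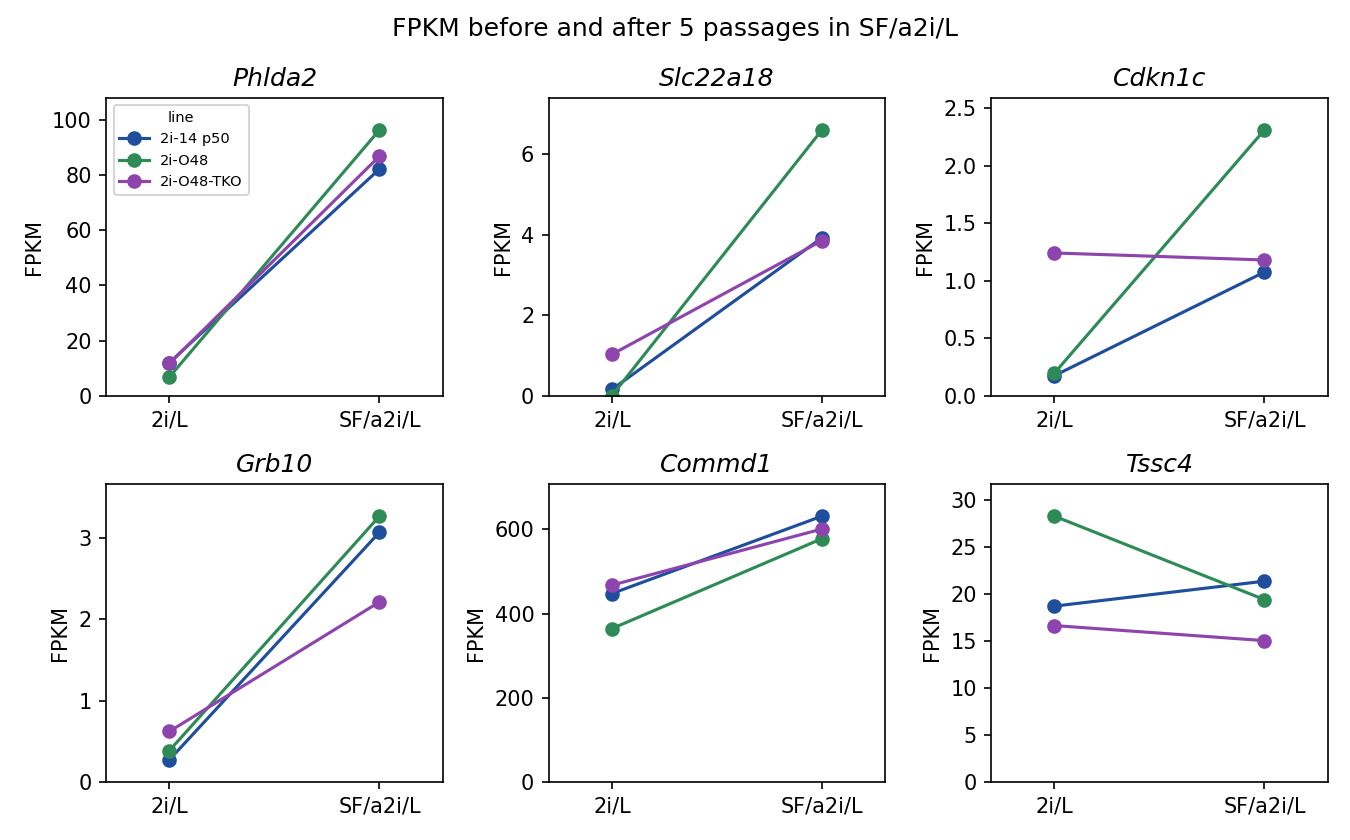
FPKM of 6 of the genes in 2i/L and after 5 passages in SF/a2i/L, with 1 line per cell line (2i-14 at p50, 2i-O48 and 2i-O48-TKO) and each axis starting at 0. Phlda2, Slc22a18, Grb10 and Commd1 slope upward in all 3 lines, whereas Cdkn1c and Tssc4 do not share a direction.

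Commd1 was higher in all 3 pairs, as 19.4% of tested genes were. It went from 447 to 631 FPKM in 2i-14, from 364 to 578 in 2i-O48 and from 467 to 601 in 2i-O48-TKO. There was no overlap between the groups, as for 11.5% of tested genes. The log2 difference of 0.51 ± 0.15 (SE) did not pass (limma adjusted p = 0.0901), and it did pass with 2i-14 p18, 2i-14 p39 or all 3 passages of 2i-14 as the wild-type control (limma adjusted p = 0.0342, 0.0388 and 0.0254). Cdkn1c, next to Slc22a18, was at 11.8 times its earlier level in 2i-O48 and at 0.951 of it in 2i-O48-TKO. In 2i-14 the ratio was 6.19 against p50, 2.01 against p39 and 1.00 against p18. The log2 difference of 0.75 ± 0.29 (SE) did not pass (limma adjusted p = 0.17). The log2 difference was 0.10 for Ube3a, 0.06 for Cd81, -0.16 for Tssc4 and -0.16 for Igf2r, with adjusted p from 0.646 to 0.911.

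Across all 13 libraries, Phlda2 and Slc22a18 were higher in each of the 8 libraries in TSa2i/L or SF/a2i/L than in each of the 5 in 2i/L. 2.81% of the 10731 genes at 1 FPKM or more in at least 3 libraries separated in that direction. Slc22a18 was among these genes only through the libraries in TSa2i/L or SF/a2i/L where it was high, so this share is no measure for it. Over the 13 libraries the Pearson correlation of the log2 levels was 0.927 between Phlda2 and Slc22a18, 0.834 between Phlda2 and Grb10 and 0.50 between Phlda2 and Cdkn1c, descriptions over libraries that share lines and media. Slc22a18 stood at 0.0128 to 0.0276 of Phlda2 in FPKM in wild-type 2i/L and at 0.072 to 0.121 in TSa2i/L, with the switched cultures at 0.0443 to 0.0685. The DMR-deleted lines in 2i/L lay apart, at 0.0878 in 2i-O48-TKO, within the TSa2i/L range, and at 0 in 2i-O48, where Slc22a18 is listed at 0.

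Passage was read within TSa2i/L, where TSa2i-14 p47 and p54 and TSa2i-C57 p58 were compared with TSa2i-14 p22 and TSa2i-C57 p9. None of the 9 genes was called, with 2 at an unadjusted p under 0.05 (Igf2r and Cd81), and of 10502 tested genes 0% were called by limma (0 genes, with 928 at an unadjusted p under 0.05). The highest log2 difference was that of Igf2r at 0.61 ± 0.22 (SE; limma adjusted p = 0.53), followed by 0.51 for Grb10 and 0.47 for Cdkn1c, and all 3 late libraries were above both early ones for each of these genes, as for 18.5% of tested genes. Cdkn1c passed the filter of 1 FPKM in 2 libraries only through late ones. Cd81 and Commd1, with differences of -0.48 and -0.13 (limma adjusted p = 0.535 and 0.767), had all late libraries below both early ones, as did 9.72% of tested genes. Among the late libraries, TSa2i-14 p54 and TSa2i-C57 p58 were also high in fibroblast RNA, with a mean log2(FPKM + 1) of 2.25 and 1.28 over the fibroblast genes against 0.143 to 0.543 in the other 3, and TSa2i-14 p47, at 0.267, had 2.78 FPKM of Igf2r and 2.59 of Grb10. Its Cdkn1c level of 0.512 FPKM was near the 0.456 and 0.389 of the early libraries, whereas TSa2i-14 p54 and TSa2i-C57 p58 were at 1.10 and 1.38. The part of feeder RNA in these levels was not tested beyond these values.

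**Figure D4:**
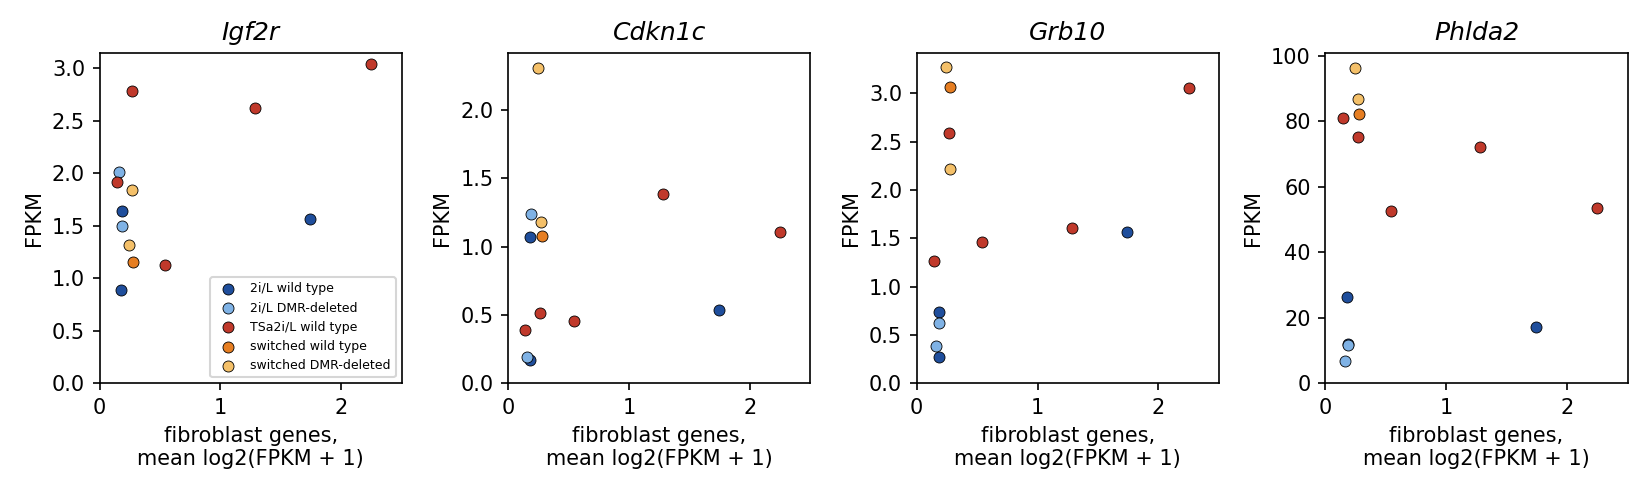
FPKM of Igf2r, Cdkn1c, Grb10 and Phlda2 (vertical axes, from 0) against the mean log2(FPKM + 1) of 15 fibroblast genes (horizontal axes), with 1 point per library coloured by group. The 3 libraries to the right of 1 are 2i-14 p39, TSa2i-C57 p58 and TSa2i-14 p54, and for Phlda2 the groups are apart at low and at high fibroblast levels alike.

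In TSa2i-14 and TSa2i-C57, Tssc4 moved in opposite directions with passage. It was at 32.3 FPKM at p22 and 26.3 and 24.1 at p47 and p54 in TSa2i-14, and at 17.6 at p9 and 39.5 at p58 in TSa2i-C57. The difference between the lines, fitted as an interaction with 1 residual degree of freedom, was 1.47 on the log2 scale and did not pass (limma adjusted p = 0.196). It did not pass for the other 8 genes either, with adjusted p from 0.231 to 0.947. In the switch pairs Tssc4 was 1.14-fold higher in 2i-14 and at 0.686 and 0.904 of its earlier level in 2i-O48 and 2i-O48-TKO, and the same kind of fit for a difference between wild-type and DMR-deleted lines gave an adjusted p of 0.938, with 0.874 or above for all 9 genes (limma).

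The DMR-deleted lines in 2i/L were compared with 2i-14 in 2i/L, where deletion and line cannot be told apart. None of the 7 genes tested was called by limma, against 0.118% of 10164 tested genes. 1 of the 7 (Phlda2) had an unadjusted p under 0.05, as had 589 of all tested genes, and Grb10 and Slc22a18 did not reach the filter. Phlda2, at 6.77 and 11.7 FPKM, was below all 3 2i-14 libraries, as were 7.74% of tested genes, with a log2 difference of -0.91 ± 0.37 (SE; limma adjusted p = 0.821). Cd81 was at 227 and 461 against 564, 377 and 577 FPKM, which overlap.

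Of 9 partner genes listed for these clusters, 4 passed the filter in the medium comparison with 0 called, against 7.57% of all genes. At the switch 4 passed with 1 called (25%, against 6.89% of all genes). This was Snrpn, a paternally expressed gene of the Ube3a region, which rose by 0.89 on the log2 scale (limma adjusted p = 0.0323). Snrpn went from 205 to 424 FPKM in 2i-14, from 167 to 323 in 2i-O48 and from 171 to 271 in 2i-O48-TKO, whereas Ube3a went from 8.42 to 9.86, from 7.91 to 8.62 and from 8.22 to 8.21. Ascl2, another gene of the distal chromosome 7 cluster and a trophoblast factor, was at 3.78, 0.959 and 0.849 FPKM in 2i-14 and from 2.27 to 6.12 in TSa2i/L, and its difference of 1.07 did not pass (limma adjusted p = 0.0808). Zrsr1, within Commd1, ran from 1.08 to 2.41 FPKM, and its differences of -0.29 between media and -0.15 at the switch did not pass (limma adjusted p = 0.402 and 0.728).

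Among 34 other maternally expressed imprinted genes, 15 were tested between media with 0 higher and 1 lower, and 12 at the switch with 0 called. Of 30 paternally expressed genes, 16 were tested in each, with 1 higher and 1 lower between media and 1 higher and 3 lower at the switch, beside 7.57% and 6.89% of all genes called. The median log2 difference of the other maternally expressed genes was 0.36 between media and 0.02 at the switch, and that of the paternally expressed genes was 0.06 and 0.30. In the insulin and IGF pathway, on which Igf2r and Grb10 act, 9 of 17 listed genes (Grb10 included) were tested between media with 0 called, and of 6 tested at the switch 1 was called higher, Grb10, and 1 lower, Igfbp2, a secreted IGF-binding protein. Grb10 was among the 6 only through the switched libraries, and with no filter neither call remained. Igfbp2 was at 629 FPKM in 2i-14 p50, 702 in 2i-O48-TKO and 274 in 2i-O48, and at 211, 168 and 141 in these lines after the switch, a fall of 1.53 on the log2 scale (limma adjusted p = 0.0201). Igf2, the ligand of Igf2r, was at most 1.43 FPKM, in TSa2i-14 p54.

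For each gene the 2 genes whose log2 levels tracked it most closely over the 13 libraries were noted among the 10731 genes at 1 FPKM or more in at least 3 libraries. They were Mia and Calca for Phlda2 (Pearson correlation 0.962 and 0.961), Fuom and Usp11 for Slc22a18 (0.960 and 0.959), and Ascc3 and Phf20l1 for Grb10 (0.957 and 0.903). Mia ran from 9.04 to 110.1 FPKM and Calca from 7.92 to 228 FPKM. Tssc4 was closest to Zfp709 and Pusl1 (0.955 and 0.923), Commd1 to Eif1ax and Slc9b1 (0.958 and 0.951), Cd81 to Ccng1 and Dhx16 (0.910 and 0.909) and Igf2r to Zranb1 and Ly6k (0.903 and 0.899). The weakest likenesses were those of Ube3a, to Ncor1 and Smc2 (0.857 and 0.825), and Cdkn1c, to Fnbp1l and Usp54 (0.855 and 0.813). Each pair was picked as the highest of all genes compared, so these correlations are descriptions.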

How the data were processed

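RNA-seq libraries were made by the authors from full-length cDNA amplified from a small number of haploid cells with a kit for single cells. The effect of this small input on low values and listed zeros was not tested. Reads were mapped to mm9, and the authors deposited FPKM values per gene, whose submitters' processing notes name TopHat2 2.0.11, Bowtie2 2.2.2 and Cufflinks 2.2.1. The annotation and any scaling between libraries are not given in the sources used here, and methylation and chromatin samples were not analysed here. Rows of one symbol were summed (268 of 24028 symbols). Fits used limma 3.58.1 in R 4.3.3 on log2(FPKM + 1), so fold changes of low genes are understated, with a trend in the empirical Bayes step. A gene was tested if it reached 1 FPKM in 3 libraries of the medium or switch comparison, or in 2 for passage and deletion. Passage 30 divided early from late. Switched and unswitched cultures were paired by cell line as the labels name it (correlations of their deviations 0.172, -0.141 and 0.358). On simulated data with known changes, a log2 change of 2 was recovered for 91% of genes in the medium comparison and 64.2% at the switch, over 10387 and 9759 genes. A log2 change of 1 was recovered for 61.2% between media, 14.9% at the switch, 32.8% for passage and 13.4% for deletion. The depth estimate used 3737 genes and missed simulated depths by at most 0.829%. The named genes were the 9 genes, their cluster partners, the 2 genes most like each by correlation, and up to 4 of each list by mean FPKM, and markers that moved with a gene. The genes and lists were chosen with earlier results of these data known. Alternatives covered the pseudocount, filter, scaling, trend, block, controls, fibroblast covariate, repeated rows and libraries left out.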

Additional observations from a re-analysis of the deposited data

Results flagged for a closer look

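H19, a maternally expressed non-coding RNA, was at 2.88 FPKM in TSa2i-14 p54 against 0 to 0.818 in the other 4 TSa2i/L libraries, a gap of 0.716 of the group's range, which is wider than the limit for a sample far from the others. That library also had the most fibroblast RNA, with Dcn at 58.2 FPKM and all 15 fibroblast genes above 0, and the part of that RNA in the H19 level was not tested. None of the 9 genes had a library this far from the others in the TSa2i/L group, and chance alone sets apart about 1 in 20 such groups. The check covered the 9 genes and 9 cluster partners, of which H19 is one, so a single flag may arise by chance.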

How the results depend on the processing

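The number of the 9 genes called was 2 between media, 3 at the switch, and 0 for passage and for deletion. Requiring a mean FPKM of at least 5 gave 1 gene between media and 1 at the switch, since fewer of the 9 were then tested, and no filter gave 0 at the switch (the cause was not tested). All other alternatives for these 4 counts, and both for the number of genes at 1 FPKM or more in every library, stayed within 1.5 times. With single libraries or lines removed the counts were 2 to 2 between media, 3 to 3 at the switch and 0 to 0 for passage and deletion. In each of these refits Slc22a18 between media, and Grb10 and Slc22a18 at the switch, were tested only through the libraries where they were high. The steady counts are therefore no support for these genes.

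Over all genes, 786 were called between media. That became 374 with no filter, 458 with a mean FPKM of at least 5, 137 without the 3 libraries with most fibroblast RNA, 468 with TSa2i-14 only and 1316 with the DMR-deleted lines added to 2i/L, and 299 to 846 with 1 library left out (299 without 2i-14 p39, 431 without 2i-14 p50, 440 without TSa2i-14 p47 and 504 without 2i-14 p18). The 672 calls at the switch became 0 with no filter, 369 with a mean FPKM of at least 5, 1505 when the 3 passages of 2i-14 all served as control, 1522 with p39 and 1483 with p18, and 311 to 1461 with 1 line left out (311 without 2i-O48-TKO, 1031 without 2i-14 and 1461 without 2i-O48). The 0 calls for passage became 2 without the libraries with most fibroblast RNA, an alternative chosen after seeing the data, and 0 to 8 with 1 library left out (8 without TSa2i-14 p47). The 12 calls for deletion became 0 with no filter and 1 to 20 with 1 library left out (1 without 2i-O48, 4 without 2i-O48-TKO and 20 without 2i-14 p50). Median centring moved the median of all genes from 0.07 to -0.05 between media and from -0.09 to 0.07 at the switch. The cause of these shifts was not tested.

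Of 284 refitted differences of the 9 genes between media or at the switch, 270 kept their direction and side of the threshold. The 7 that reversed were all of differences not called: Cdkn1c between media at -0.0296 with quantile normalization and, with 1 library left out, from -0.0472 to 0.232, Cd81 between media from -0.0297 to 0.276, and at the switch Igf2r at 0.00204 and Tssc4 at 0.0067 with median centring and, with 1 line left out, Tssc4 from -0.329 to 0.0225 and Cd81 from -0.368 to 0.29. Without the replicate block the switch gave the same 3 genes, of which Grb10 and Slc22a18 were again tested only through the switched libraries. A block changed no call of the 9 genes for passage. Leaving out 1 of 2 libraries assumes that the lone library varies like the others. At these depths a level under about 0.2 FPKM on a short transcript rests on few fragments.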
